A study of Mus musculus with 20 samples.

Results

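The alpha-arrestin family of the mouse was followed here through 5 genes, Arrdc1, Arrdc2, Arrdc3, Arrdc4 and Txnip, out of 55401 genes in the count matrix. They were taken as a named family, with symbols mapped to the Ensembl identifiers of the matrix, and the family was selected on 1 measured value: Arrdc3 was chosen by its higher level under HK. For that reason the values of Arrdc3 in this comparison are given as a description without a test, whereas the other 4 genes were tested in it and all 5 were tested for sex and batch. All 5 passed the filter on low counts, which left 13626 genes.

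RNA was sequenced from the gastrocnemius, a calf muscle, of 20 mice, all 24 months old and of the C57BL/6 strain used throughout the study. The HK-treated group (10 mice, 5 males and 5 females) received Haenkenium (HK), an extract of the plant Salvia haenkei, at 0.5 mg/kg/day in the drinking water from 20 months of age, for 4 months, and the untreated group (10 mice, 5 males and 5 females) received drinking water. The labels divide the mice into experimental batch 1 (4 HK-treated and 4 untreated mice) and batch 2 (6 and 6), each with males and females in equal number. No young mice were analysed here, and the sources used here give neither the hour of tissue collection nor the feeding state of the mice.

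Alpha-arrestins are adaptor proteins with an arrestin fold. Most carry PPxY motifs, short stretches through which they recruit ubiquitin ligases of the Nedd4 family to membrane proteins, which are then ubiquitinated, internalised and sorted in endosomes. ARRDC3 is known to act on membrane receptors and on energy expenditure, ARRDC1 buds vesicles from the plasma membrane, and ARRDC4 and TXNIP reduce glucose uptake by promoting the internalisation of glucose transporters. TXNIP also binds thioredoxin. Txnip and Arrdc4 are known targets of the glucose-sensing transcription factors MondoA and ChREBP, and ARRDC2 is the least studied of the group.

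The 5 genes differ in the DNA just before their transcription start. The windows below hold the 250 bases upstream of the RefSeq start of each gene on GRCm38.p6, read in the direction of the gene, for the 4 genes in which a searched motif was found: Txnip at chr3:96557707-96557956 on the plus strand, Arrdc4 at chr7:68749239-68749488 on the minus strand, Arrdc3 at chr13:80883134-80883383 on the plus strand and Arrdc2 at chr8:70839721-70839970 on the minus strand. Capitals mark the matches to the motifs described after them.
Txnip: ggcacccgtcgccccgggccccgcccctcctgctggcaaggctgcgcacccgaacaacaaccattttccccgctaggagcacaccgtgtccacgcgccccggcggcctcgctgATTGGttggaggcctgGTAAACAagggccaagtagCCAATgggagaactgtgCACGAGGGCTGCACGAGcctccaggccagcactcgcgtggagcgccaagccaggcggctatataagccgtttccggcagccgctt
Arrdc4: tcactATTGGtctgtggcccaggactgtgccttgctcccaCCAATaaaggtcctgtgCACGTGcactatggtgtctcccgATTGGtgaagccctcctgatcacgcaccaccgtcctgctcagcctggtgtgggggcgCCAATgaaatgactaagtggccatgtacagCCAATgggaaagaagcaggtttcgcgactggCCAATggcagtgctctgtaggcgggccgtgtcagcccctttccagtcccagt
Arrdc3: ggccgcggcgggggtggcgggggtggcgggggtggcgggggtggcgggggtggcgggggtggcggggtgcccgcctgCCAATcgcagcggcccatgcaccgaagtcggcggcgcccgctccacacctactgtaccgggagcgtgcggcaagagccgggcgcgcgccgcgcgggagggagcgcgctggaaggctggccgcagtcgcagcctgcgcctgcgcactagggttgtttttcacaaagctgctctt
Arrdc2: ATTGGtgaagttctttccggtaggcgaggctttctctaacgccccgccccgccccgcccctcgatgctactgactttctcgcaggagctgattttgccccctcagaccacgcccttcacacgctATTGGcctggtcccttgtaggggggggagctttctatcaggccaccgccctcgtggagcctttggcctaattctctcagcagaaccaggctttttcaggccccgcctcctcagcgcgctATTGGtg
Both strands were searched, over 32851 such windows of 27025 genes, and no matches in the windows shown overlapped. Txnip holds a pair of E-box-like elements, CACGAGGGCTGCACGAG, from 85 to 69 bases before the start. The pattern searched, CACGNG repeated after 5 bases of any kind, has the spacing of the element to which MondoA and ChREBP are known to bind, and it was found in 0.0457% of all windows. Arrdc4 holds instead a single E-box, CACGTG, from 193 to 188 bases before the start, a motif present in 6.02% of windows. The CCAAT box, written CCAAT or ATTGG, stands 6 times in the Arrdc4 window, 3 times in that of Arrdc2, 2 times in that of Txnip and 1 time in that of Arrdc3. At least 1 CCAAT box was found in 33.8% of windows, at least 3 in 2.79% and at least 6 in 0.0578%. Txnip also has a FoxO site, GTAAACA, present in 3.17% of windows. No window of the 5 genes held a cAMP response element (TGACGTCA, in 1.55% of windows) or a glucocorticoid response element (AGAACA and TGTTCT with 3 bases between them, in 0.00913%). The letters TATAAA of the TATA box (in 12.4%) were not found in them either. Only these exact letters were searched, so other forms, such as the tatataa near the end of the Txnip window, were not counted. The window of Arrdc1 held none of the searched motifs. RefSeq gives 2 further starts for Arrdc3, and only 1 of those windows held a match, the same CCAAT box. These matches describe letters in the reference and not binding in these muscles.

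In total 13900180 to 30469644 counts were assigned per mouse. Each library correlated with the others at a median r of 0.956 to 0.974 over the genes tested, so that no library stood apart by this measure. Among mice of one group, sex and batch, untreated female 3 differed most from untreated females 4 and 5. The chi-square per degree of freedom was 49.6 and 38.7, beside 8.06 to 29.1 for all other pairs. All 10 skeletal muscle fibre markers were detected, with summed levels of 147874 to 181706 CPM (counts relative to the size of the library, which was scaled by the TMM method) in HK-treated and 132968 to 177003 CPM in untreated mice. Counts in the matrix were whole numbers, as deposited. Because the use of strand in counting is not given, reads of Txnip cannot be separated from those of the antisense gene Gm15441, which spans the whole of Txnip. Gm15441 held 223 counts over all mice, 0.0984% of those of Txnip. The antisense gene 1700023H06Rik, which overlaps Arrdc3 by 1301 bases, held 2 counts. In whole muscle, fewer cells of a type and less RNA per cell cannot be told apart.

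Txnip was by far the most abundant of the 5 genes. On the scale of CPM per kilobase of exon, which allows genes of different length to be compared, its level in untreated mice was 185 ± 75.8 (SD, n = 10), above 98.9% of the genes tested. Arrdc3 followed at 7.19 ± 2.43, Arrdc2 at 2.16 ± 2.38, Arrdc4 at 2.01 ± 0.39 and Arrdc1 at 1.50 ± 0.29 CPM per kilobase (SD, n = 10 each). Txnip exceeded Arrdc3 25.8-fold with no overlap between the mice. The ranges of Arrdc3 and Arrdc2 overlapped across mice, although within each of the 10 untreated mice Arrdc3 was the higher. Arrdc2 and Arrdc4 could not be ordered, since Arrdc2 was the higher in 5 of 10 mice, and Arrdc4 was above Arrdc1 in 8 of 10. Reads behind these levels ranged from 3229 to 21075 counts per mouse for Txnip (ENSMUSG00000038393, chr3:96557957-96561883, plus strand), from 494 to 2936 for Arrdc3 (ENSMUSG00000074794, chr13:80883384-80896042, plus strand), from 78 to 333 for Arrdc4 (ENSMUSG00000042659, chr7:68736995-68749241, minus strand), from 43 to 106 for Arrdc1 (ENSMUSG00000026972, chr2:24925352-24935252, minus strand) and from 19 to 481 for Arrdc2 (ENSMUSG00000002910, chr8:70835129-70839720, minus strand). The 5 genes also differed in their spread between untreated mice, with a coefficient of variation of 110% for Arrdc2, 40.9% for Txnip, 33.8% for Arrdc3, 19.5% for Arrdc4 and 19.2% for Arrdc1.

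**Figure D1:**
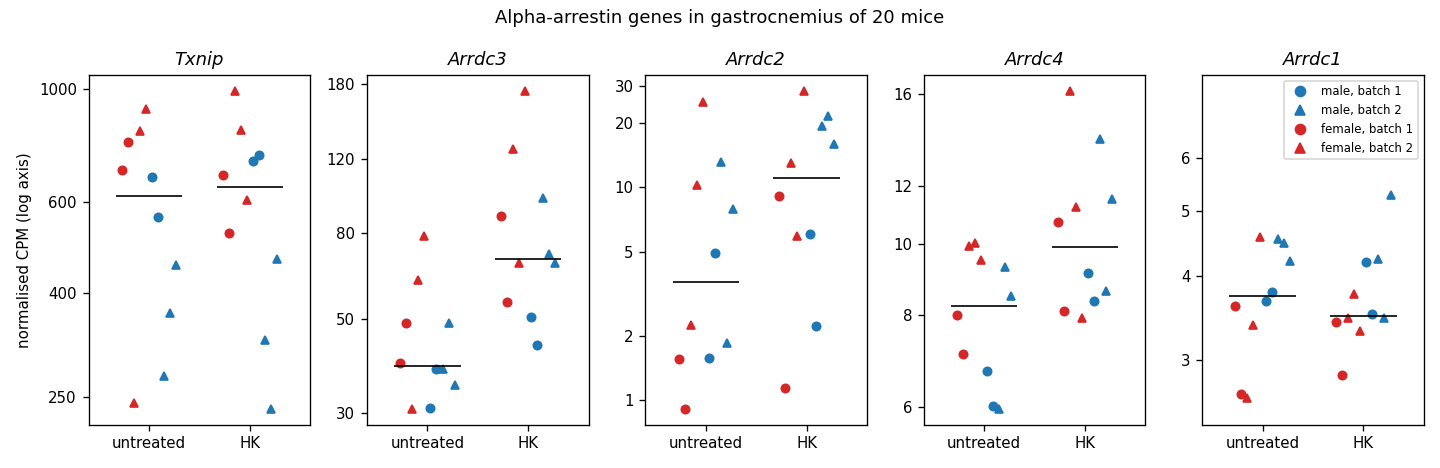
Level of each alpha-arrestin gene in CPM (log axis, a separate range per panel) in 10 untreated and 10 HK-treated mice; each point is 1 mouse, colour gives the sex, shape the batch, and the line is the group median. All 10 HK-treated mice lie above the untreated median of Arrdc3 (38.7 CPM), and the groups overlap for all 5 genes.

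The first comparison asked how 4 months of HK changed the RNA of these genes in old muscle. Arrdc3, an adaptor of membrane receptors and the gene for which the family was taken up, had levels in untreated males of 30.8, 38.2, 38.1, 48.9 and 34.9 CPM and in untreated females of 39.3, 49.0, 30.7, 61.8 and 78.7 CPM. In HK-treated males it was at 50.7, 43.4, 96.9, 71.4 and 67.8 CPM, and in HK-treated females at 87.6, 55.1, 127, 67.8 and 174 CPM. All 10 HK-treated mice were thus above the untreated median, and 4 of them were above the highest untreated mouse, untreated female 5. That all 10 HK-treated mice lie above the untreated median was the case for 71 of 13626 genes (0.521%), and this count served as a description only, since Arrdc3 was chosen in this contrast. With batch and sex in the model, the difference was 0.85 ± 0.17 (SE) on the log2 scale, or 1.80-fold, which placed Arrdc3 as number 49 of the 13626 genes ordered by log2 fold change. Separated by sex and batch, the ratio of the means was 1.36 in males and 1.62 in females of batch 1, and 1.94 in males and 2.15 in females of batch 2. Each of these 4 strata held only 2 or 3 mice per group, and the ratios too are a description of the gene chosen.

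Of the other 4 genes, none passed the test between HK-treated and untreated mice, as no gene did: edgeR's quasi-likelihood test called 0 of 13626 genes (0%) at an adjusted p under 0.05, with 835 (6.13%) at an unadjusted p under 0.05, and DESeq2 called 7. Arrdc4, which acts on glucose transporters, had the lowest unadjusted p of the 4. Its levels were 6.71, 6.02, 5.97, 9.30 and 8.48 CPM in untreated males, and 8.00, 7.07, 9.92, 10.03 and 9.50 CPM in untreated females. In HK-treated males they were 9.12, 8.37, 13.9, 8.62 and 11.5 CPM, and in HK-treated females 10.7, 8.10, 16.2, 11.2 and 7.92 CPM. The groups overlapped, with 8 of 10 HK-treated mice above the untreated median and 5 above the highest untreated mouse. The difference was 0.39 ± 0.11 (SE) in log2, or 1.31-fold, with a 95% interval of 0.15 to 0.63 (unadjusted p = 0.00294 and adjusted p = 0.795 by edgeR). It was 0.39 ± 0.12 in batch 1 alone and 0.39 ± 0.17 in batch 2 alone, and 0.49 ± 0.15 in males and 0.28 ± 0.16 in females.

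Arrdc2 was at 1.58, 4.94, 13.2, 1.86 and 7.91 CPM in untreated males, and at 1.56, 0.915, 2.27, 10.3 and 25.2 CPM in untreated females. In HK-treated males it was at 6.06, 2.23, 19.3, 21.7 and 16.1 CPM and in HK-treated females at 9.14, 1.15, 12.997, 5.94 and 28.4 CPM. Low and high mice occurred in both groups, and 8 of 10 HK-treated mice were above the untreated median. The log2 difference was 0.92 ± 0.44 (SE), with a 95% interval of 0.0076 to 1.84 (unadjusted p = 0.0483 and adjusted p = 0.795 by edgeR). Txnip, the most abundant gene, was at 243 to 911 CPM (median 617) in untreated and 238 to 990 CPM (median 642) in HK-treated mice, and its log2 difference of 0.09 ± 0.21 (SE) had a 95% interval of -0.36 to 0.54 (adjusted p = 0.954 by edgeR). Arrdc1, the gene of plasma membrane vesicles, was at 2.63 to 4.58 CPM (median 3.73) in untreated and 2.84 to 5.28 CPM (median 3.48) in HK-treated mice. Its 95% interval ran from -0.21 to 0.21 in log2 around a difference of -0.00076 ± 0.10 (SE; adjusted p = 0.999 by edgeR). The 1.80-fold described for Arrdc3 is the value by which it was chosen and is given without an interval. The intervals of the other 4 genes are therefore not compared with it.

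**Figure D2:**
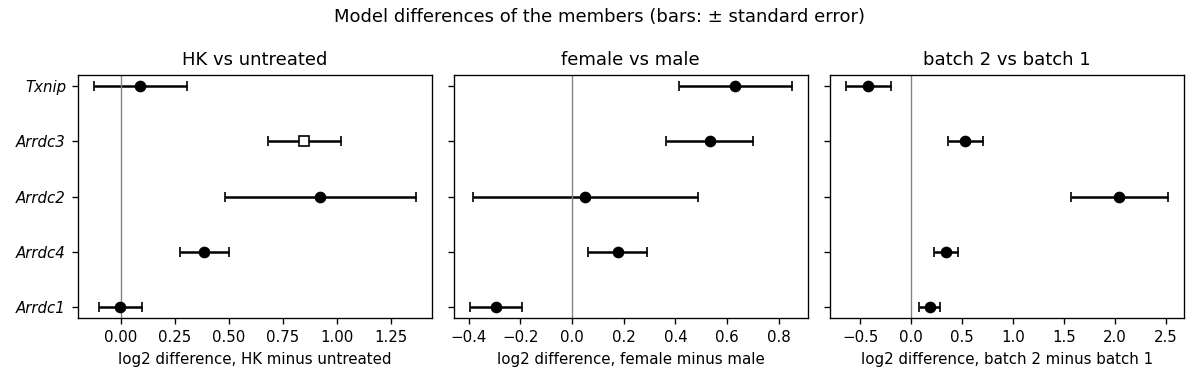
Model differences in log2 between HK-treated and untreated mice, females and males, and batch 2 and batch 1 for the 5 genes; points are estimates from all 20 mice and bars are ± 1 standard error, with an open square where the gene was chosen for the comparison. Arrdc2, Arrdc3 and Arrdc4 lie above 0 in the first panel, Arrdc1 and Txnip near 0, and Arrdc2 has the largest batch difference of the 5 (2.04).

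The HK differences were also compared between the sexes and between the batches. In Arrdc3 the difference was larger in females than in males by 0.19 ± 0.34 (SE) and larger in batch 2 than in batch 1 by 0.46 ± 0.33 in log2, with single-batch estimates of 0.58 ± 0.15 and 1.03 ± 0.24. In Arrdc2 these terms were -0.13 ± 0.91 for sex and -0.39 ± 0.95 for batch. None of the 5 genes passed an interaction test (edgeR, all adjusted p at or above 0.998), and neither did any other of the 13800 genes in these fits (0% for each interaction), of which 483 (3.5%) and 416 (3.01%) had an unadjusted p under 0.05 for sex and batch. DESeq2 called 0 genes in both. The intervals stayed wide, from -0.24 to 1.16 for the batch term of Arrdc3.

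More genes differed between females and males. Of 13626 genes, 2197 (16.1%) passed the test of sex, 999 (7.33%) higher and 1198 (8.79%) lower in females, and 2 of the 5 alpha-arrestins were among them, in opposite directions. Arrdc3 was higher in females, by 0.53 ± 0.17 (SE) in log2 or 1.45-fold (adjusted p = 0.0351 by edgeR), with 30.7 to 174 CPM (median 64.8) in females and 30.8 to 96.9 CPM (median 46.2) in males. Of the 10 females, 8 were above the male median. Arrdc1 was lower in females, by a log2 difference of -0.30 ± 0.10 (SE; adjusted p = 0.0493 by edgeR), at 3.37 ± 0.58 against 4.14 ± 0.56 CPM (SD, n = 10 each), and 1 of 10 females was above the male median. Both calls were close to the threshold. Arrdc1 kept its call in 4 of the 20 fits that each left out 1 mouse (adjusted p from 0.0261 to 0.111), namely those without untreated female 1, untreated female 5, HK-treated male 2 or HK-treated male 4. Arrdc3 lost its call without untreated males 3 or 5, untreated females 2 or 5, HK-treated males 2 or 5, or HK-treated females 1 or 5 (adjusted p from 0.00613 to 0.0697 over the 20 fits). Arrdc2 (0.05 ± 0.44) and Arrdc4 (0.18 ± 0.11) did not pass, with adjusted p of 0.955 and 0.316 by edgeR.

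Txnip, whose protein binds thioredoxin and holds back glucose uptake, fell just short of the threshold for sex (log2 difference of females minus males 0.63 ± 0.22, adjusted p = 0.0537 by edgeR), and its values for the sexes differed from batch to batch. In batch 1, males were at 673, 561, 724 and 743 CPM and females at 695, 787, 678 and 523 CPM, so the sexes overlapped and the log2 difference was -0.0065 ± 0.13 (adjusted p = 0.983 by edgeR). In batch 2, the 6 males were at 238 to 466 CPM (median 345) and the 6 females at 243 to 990 CPM (median 830). Of these females, 5 were above every male of the batch and untreated female 3, at 243 CPM, was among the lowest of all mice. The difference in batch 2 was 1.05 ± 0.28 (adjusted p = 0.0421 by edgeR). A term for the difference between the batches, added after these values were seen, was 1.06 ± 0.38 (95% interval 0.26 to 1.85, unadjusted p = 0.012), which did not pass over all genes (adjusted p = 0.252 by edgeR). This term called 0 of 13800 genes (0%), and 1790 (13%) had an unadjusted p under 0.05. Leaving out untreated female 3, HK-treated male 1, HK-treated male 2 or HK-treated female 2 brought the overall sex difference past the threshold (adjusted p from 0.0127 to 0.0908 over the 20 fits with 1 mouse left out).

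**Figure D3:**
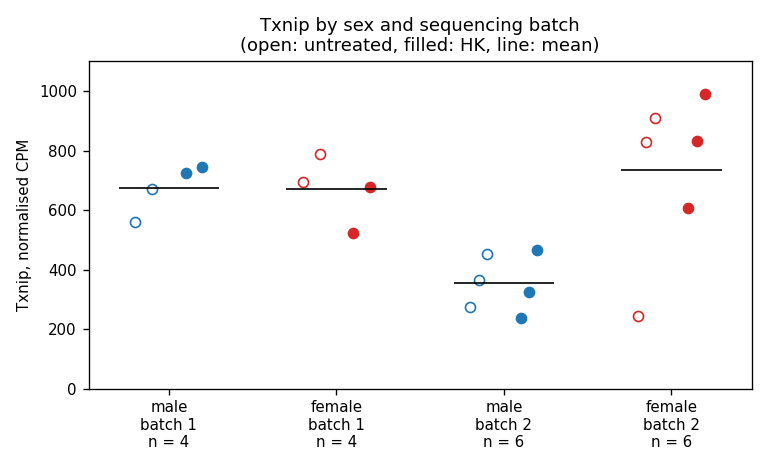
Txnip in CPM for males and females of each batch, with open points for untreated and filled points for HK-treated mice and a line at the mean. Males and females of batch 1 overlap (means 675 and 671 CPM), whereas males of batch 2 (mean 354 CPM) lie below 5 of 6 females of that batch (mean 735 CPM).

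Adipocyte markers moved with sex in the same libraries: 6 of 7 adipocyte markers were higher in females, with summed levels of 98.5 to 321 CPM (median 216) in females and 74.7 to 193 CPM (median 134) in males, and none was at 0. Nerve sheath markers did so too, with 3 of 4 higher in females and 0 lower and summed levels of 45.5 to 124 CPM (median 79.99) in females and 20.8 to 89.8 CPM (median 51.6) in males. Over the 20 mice, as a description on log2 levels from which batch, sex and treatment were removed, the summed nerve sheath level had an r of 0.40 with both Txnip and Arrdc1. It was -0.02 with Arrdc3. The adipocyte level had an r of 0.21 with Txnip, -0.11 with Arrdc1 and -0.04 with Arrdc3. Larger r were found for Txnip with the muscle fibre level (0.58) and for Arrdc1 with the macrophage level (-0.44), and Txnip had -0.40 with the latter. Apart from adipocyte and nerve sheath markers, 1 of 7 macrophage markers was lower and 1 of 7 blood markers higher in females. Of 10 muscle fibre markers 2 were higher and 2 lower, and none of the endothelial or progenitor markers passed. Their part in the sex differences was not tested. Among the MondoA and ChREBP factors and their targets, the pathway known to control Txnip and Arrdc4, 6 of 11 tested genes were higher in females and 0 lower, against the 7.33% and 8.79% of all genes given above. Mlxip, which encodes MondoA, was higher in females by 0.21 ± 0.06 in log2 (adjusted p = 0.0198 by edgeR), and Klf10, a transcription factor induced by glucose, by 1.12 ± 0.26 (adjusted p = 0.00547 by edgeR). The lipogenic genes Acaca, Scd1 and Elovl6 and the ChREBP gene Mlxipl made up the rest, and they are also expressed in adipocytes. In the thioredoxin system, to which TXNIP binds, 5 of 15 genes were lower in females and 0 higher, among them Prdx2 (-0.17 ± 0.06, adjusted p = 0.0443 by edgeR).

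The batches differed widely, with 5062 of 13626 genes (37.1%) past the test. Arrdc2 was 4.12-fold higher in batch 2 (log2 difference 2.04 ± 0.48 (SE), adjusted p = 0.00249 by edgeR), at 0.915 to 9.14 CPM (median 1.90) in the 8 mice of batch 1 and 1.86 to 28.4 CPM (median 13.1) in the 12 of batch 2. Arrdc3 (0.53 ± 0.17, adjusted p = 0.0206) and Arrdc4 (0.35 ± 0.12, adjusted p = 0.0257) were also higher in batch 2 by edgeR, whereas Arrdc1 (0.18 ± 0.10, adjusted p = 0.165) and Txnip (-0.42 ± 0.22, adjusted p = 0.14) did not pass. Thus 3 of 5 genes were higher in batch 2, beside 18.2% of all genes. For Arrdc3 the batch difference (1.45-fold) was as large as that between the sexes. Per the study's methods, the 2 batches come from separate sequencing experiments, and no further difference in handling is described there.

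The genes were then compared with each other across mice, on log2 CPM from which batch, sex and treatment had been removed. Of the 10 pairs, 1 passed: Arrdc2 and Arrdc3 varied together with a Pearson r of 0.605 over 20 mice (permutation test, two-sided p = 0.00485, adjusted over the 10 pairs p = 0.0485). The Spearman rho of 0.582 did not pass (permutation test, adjusted p = 0.0873). Without the 2 mice farthest from the median of Arrdc2, r was 0.736. Untreated female 3 was not one of those 2. It had the lowest Arrdc3 level of the 20 mice after adjustment for batch and sex (4.52 in log2 CPM), and its weight in r was not tested. Within batch 1 it was 0.837 (8 mice, exact permutation test, adjusted p = 0.102) and within batch 2 it was 0.583 (12 mice, permutation test, adjusted p = 0.233). A smaller prior count of 0.5 in place of 2 gave 0.601 (adjusted p = 0.0526 by permutation test), so this call was at the edge of the threshold. Arrdc1 and Txnip came next (r = 0.544, permutation test, adjusted p = 0.0665), but r fell to 0.240 without the 2 mice farthest from the median of Arrdc1 and was 0.044 in batch 1. Txnip and Arrdc4, which share regulators, had an r of 0.285 (permutation test, adjusted p = 0.368), and Arrdc3 and Arrdc4 one of -0.0061 (permutation test, adjusted p = 0.98). With treatment left in, the last pair had an r of 0.442 (permutation test, adjusted p = 0.17).

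**Figure D4:**
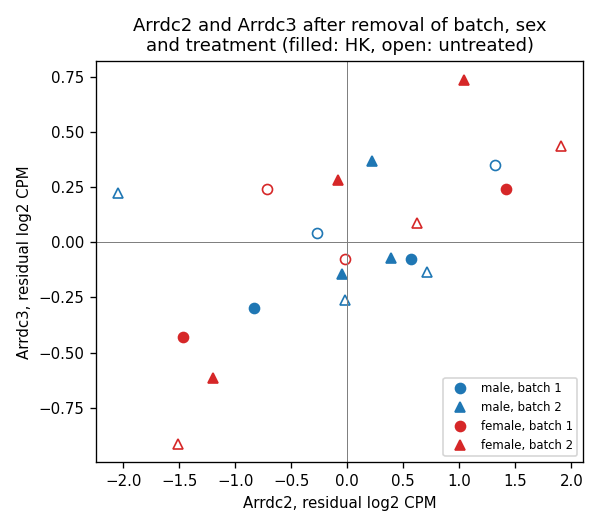
Residual log2 CPM of Arrdc2 (x axis) and Arrdc3 (y axis) in 20 mice after removal of batch, sex and treatment, with filled points for HK-treated mice, colour for sex and shape for batch. The points rise from lower left to upper right (r = 0.605), with 1 untreated male of batch 2 at the far left lying off this trend.

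To place each gene among its neighbours, the 5 genes with the highest r to it were listed from batch- and sex-adjusted log2 CPM over the 20 mice. These are descriptions, since all points come from the same libraries. Treatment was left in these values, so a shared HK difference adds to r, and Arrdc3 was chosen for its HK difference. Arrdc3 was most like Slc25a25 (r = 0.81), a mitochondrial carrier of ATP and magnesium, Tob2 (0.81), an antiproliferative regulator, Ddit4 (0.80), an inhibitor of mTORC1, Trp53inp1 (0.79), a p53-induced gene, and Gm44117 (0.77), an unnamed transcript. With treatment removed as well, r remained 0.79 for Trp53inp1 and 0.73 for Ddit4 but was 0.58 for both Slc25a25 and Tob2, which had HK differences of 1.72 ± 0.36 and 0.84 ± 0.17 (SE) in log2. Arrdc2 was most like Tsc22d3, Tob2, 4930481A15Rik, Ddit4 and Klf15 (r from 0.80 to 0.81), so that Tob2 and Ddit4 stood in the lists of both. Txnip was most like Pfkfb3 (0.85), which raises glycolytic flux, followed by Gm45221, Ehhadh, Cep83os and Stx17. Arrdc4 was most like Zfp719, Lats1, Zfp939, Mier1 and Prps1 (0.81 to 0.83), and Arrdc1 like Kcnn2, C030014I23Rik, Tatdn3, Pik3ip1 and Nme5 (0.77 to 0.82).

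Pearson r was then taken over lists of related genes, with treatment removed as well as batch and sex. Over the 16 glucocorticoid and fasting responsive genes, which muscle induces when food is scarce or corticosterone is high, the median r to Arrdc2 was 0.63 with batch, sex and treatment removed, and 10 of 16 genes (62.5%) were above 0.5, beside 4.02% of all genes. Klf15, Tsc22d3, Ddit4, Fbxo32, the ubiquitin ligase atrogin-1, and Klf9 led, with r from 0.74 to 0.77. They were named after their values were seen. For Arrdc3 the median was 0.38 and 3 of 16 genes were above 0.5 (Ddit4, Sesn1 and Sgk1), beside 2.77% of all genes. For Arrdc4 the median was -0.24. Arrdc4 was closest to the circadian clock list, with 5 of 15 genes above 0.5 (Tef, Nr1d2, Ciart, Per3 and Dbp), beside 4.06% of all genes, and Arntl, which is expressed in antiphase to these genes, at -0.46. Txnip had a median of -0.31 with the thioredoxin system, and 4 of 15 genes were below -0.5, beside 5.20% of all genes: Srxn1 (-0.83), which repairs peroxiredoxins, Txnrd1 (-0.65), the cytosolic thioredoxin reductase, Txnl1 (-0.59) and Txn1 (-0.56), thioredoxin itself. These genes too were named after their values were seen.

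**Figure D5:**
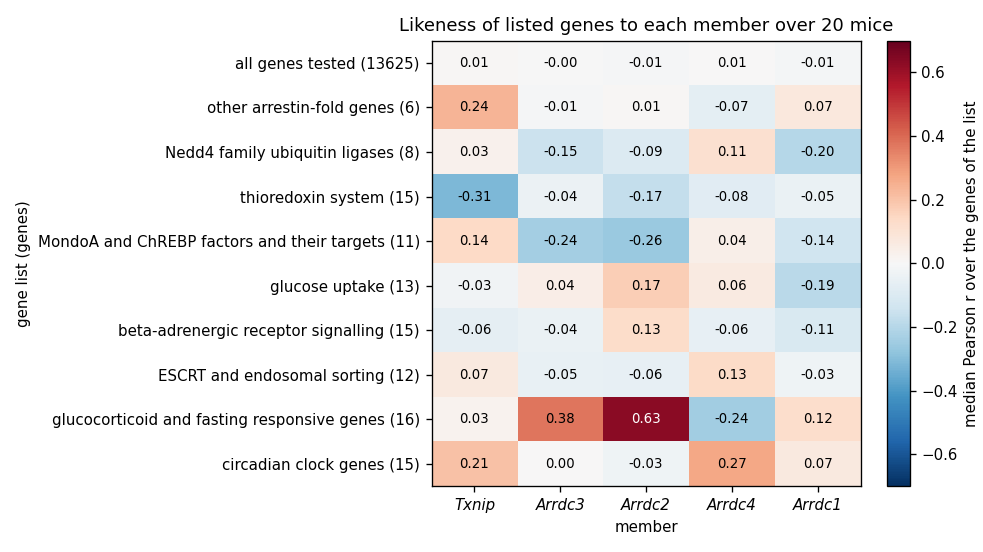
Median Pearson r over the genes of each list (rows, number of genes in brackets) with each alpha-arrestin gene (columns) over 20 mice, after removal of batch, sex and treatment. The highest cell is Arrdc2 with the glucocorticoid and fasting responsive genes (0.63) and the lowest is Txnip with the thioredoxin system (-0.31), beside about 0 for all genes.

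Last, the HK difference was followed in the pathways around the family, for which 2.78% of all genes were higher and 3.35% lower at an unadjusted p under 0.05, and none passed after adjustment. In the glucocorticoid and fasting list 6 of 16 were higher at this level and 0 lower, with a median log2 difference of 0.19 against 0.0024 over all genes. Of the 16 genes, 13 were above 0 and 3 below 0. Those 3, named after their values were seen, were Fkbp5 (-0.29 ± 0.27), Zbtb16 (-0.17 ± 0.23) and Pdk4 (-0.03 ± 0.45). The 2 lowest p belonged to Tsc22d3, a glucocorticoid-induced regulator (0.42 ± 0.12, adjusted p = 0.795 by edgeR), and Cebpd, a transcription factor (1.04 ± 0.31, adjusted p = 0.795 by edgeR). Both, like Arrdc2, also had a high batch difference (0.92 and 2.14 in log2). In the list of beta-adrenergic signalling, Nr4a1, an immediate early transcription factor, was at 0.75 ± 0.24 (adjusted p = 0.795 by edgeR). The clock list had 3 of 15 higher and 0 lower, led by Per1 (0.99 ± 0.21, adjusted p = 0.44 by edgeR) and Ciart (1.09 ± 0.42, adjusted p = 0.795 by edgeR). Of 13 genes of glucose uptake 2 were higher, Irs2 (1.05 ± 0.34) and Irs1 (0.25 ± 0.09), the adaptors of the insulin receptor (both adjusted p = 0.795 by edgeR), and of 11 MondoA and ChREBP genes 1 was, Mlxip (0.13 ± 0.06, adjusted p = 0.795 by edgeR), with Klf10 next at 0.52 ± 0.26.

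The machinery with which alpha-arrestins work gave fewer genes at this level. None of 8 Nedd4 family ligases did, with Wwp1 at 0.13 ± 0.09 and Itch at 0.07 ± 0.06 in log2, and none of 12 genes of ESCRT and endosomal sorting, with Chmp4b and Stam both at 0.10 (SE 0.06 and 0.07). None of 15 thioredoxin genes did, with Prdx2 at -0.11 ± 0.06 and Prdx6 at -0.06 ± 0.05. Of 6 other arrestin-fold genes 1 was lower, Vps26c, a subunit of the retriever sorting complex (-0.14 ± 0.05, adjusted p = 0.795 by edgeR), and Rgp1 was at -0.05 ± 0.05. Arrdc5, the remaining alpha-arrestin gene of the annotation, had 1 count in all and could not be tested. Beside these values, all 7 macrophage, all 6 endothelial and all 6 fibro-adipogenic progenitor markers had a log2 difference below 0 in HK-treated mice, with medians of -0.28, -0.26 and -0.29. All 4 nerve sheath markers were above 0 (median 0.32), and of all genes 51% were above 0. At an unadjusted p under 0.05 by edgeR stood 2 of 10 muscle fibre, 1 of 7 blood and 1 of 6 endothelial markers, beside 6.13% of all genes. None of the adipocyte, macrophage, progenitor or nerve sheath markers did. Of 7 blood markers 5 were above 0, with a median of 0.46, the largest of the 7 lists, and their summed level of 58.6 to 405 CPM in HK-treated and 30.8 to 282 CPM in untreated mice had an r of -0.49 with Arrdc3 over the 20 mice, after the same removal of batch, sex and treatment. Adipocyte markers were above 0 in 4 of 7 and muscle fibre markers in 4 of 10, with medians of 0.047 and -0.0098. Summed levels of the macrophage list were 18.6 to 212 CPM in HK-treated and 25.7 to 273 CPM in untreated mice, those of the endothelial list 71.2 to 215 and 130 to 226 CPM, those of the progenitor list 163 to 837 and 244 to 1345 CPM and those of the nerve sheath list 45.7 to 114 and 20.8 to 124 CPM, and no marker was at 0. Their part in the HK differences of the alpha-arrestin genes was not tested.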

How the data were processed

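RNA of the gastrocnemius of 20 mice was sequenced after removal of ribosomal RNA. Per the labels and the methods of the study, reads were aligned with STAR 2.6.1c to GRCm38.p6 and quantified per gene with GENCODE M25, and the authors deposited raw counts, whole numbers with no normalization or batch correction. The sources used here name neither the counting tool nor its strand setting. Groups, sex, batch and replicate numbers came from the labels, and age and length of treatment from the study's text. The sources used here do not say whether these mice shared a litter or cage. Mice were tested as independent, so p-values measure the spread between these mice. HK was given in the drinking water, and an effect of a shared cage cannot be told apart from it.

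Counts were analysed with edgeR 4.0.16 (TMM, filterByExpr, quasi-likelihood test, batch, sex and treatment as terms, Benjamini-Hochberg over all genes) in R 4.3.3. Alternatives used DESeq2 1.42.0, limma 3.58.1, other filters, other covariates, single batches or sexes, and 1 mouse left out. Levels are TMM-scaled CPM. Residual log2 CPM used a prior count of 2, and pairs of genes were tested with 100000 permutations (exact for 8 mice). The model was tested on simulated data. Gene positions and exon lengths came from GENCODE M21, also on GRCm38, in which 55141 of 55401 identifiers matched, and upstream windows from RefSeq on GRCm38.p6, in which all 5 genes matched. No pair of libraries from the same stratum agreed within sampling noise (chi-square), so none was taken for a library deposited a second time. The 5 genes and the gene lists were chosen with earlier results of these data known, so they are no independent support. Genes named are the 5 members, the 2 genes with the lowest unadjusted p of each list in the HK comparison and the 5 genes most like each member. For 1 gene that this rule names, and for the count of its list under HK, no result is reported here. Others are marked where they are named.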

Additional observations from a re-analysis of the deposited data

Results flagged for a closer look

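Among 30 groups of values examined (5 genes in 6 groups of 5 or 10 mice), 1 held a mouse far from the others: Arrdc2 in untreated female 5 was at 25.2 CPM, while the other 9 untreated mice were at 0.915 to 13.2 CPM, a gap of 0.495 of the whole range. For independent, normally distributed groups chance marks about 1 in 20. The groups here overlap, and this one pools both batches, with untreated female 5 in batch 2, where Arrdc2 was higher. The same mouse had the highest Arrdc3 and the highest Txnip level of the untreated mice, at 78.7 and 911 CPM. Without it, the HK difference of Arrdc2 was 1.28 in log2.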

How the results depend on the processing

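Depth limited Arrdc1 and Arrdc2 most, with as few as 43 and 19 counts in a mouse. The HK difference of Arrdc3 ranged from 0.58 in batch 1 alone to 1.03 in batch 2 alone over 32 alternatives. Arrdc3 was chosen for its higher level in these same mice, so its sign in refits of them is no support. Without a filter on low counts edgeR's total degrees of freedom rose from 20.26 to 481500 and the calls with it: 502 genes for HK (2111 at an unadjusted p), 314 (1513) for the interaction with sex and 225 (1345) for that with batch. In that fit Arrdc2 (0.94) and Arrdc4 (0.40) passed for HK, Txnip passed for sex (0.64) and batch (-0.42), Arrdc1 lost its sex call (-0.29), and the HK difference of Arrdc1 (0.0101) and the batch interaction of Arrdc4 (0.0103) changed sign. With at least 5 counts in total, an alternative added after seeing the data, 1392 genes had an unadjusted p under 0.05 for HK, Arrdc1 was at 0.0099 for HK and lost its sex call (-0.29, adjusted p = 0.0923).

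The HK difference of Arrdc1, near 0, also changed sign with DESeq2 size factors (0.0032), DESeq2 (0.0055), limma voom (0.0040) and batch 1 alone (0.023), and that of Txnip in batch 1 alone (-0.027). DESeq2 called 7 genes for HK and Txnip for sex (0.62, adjusted p = 0.0263), and gave sign changes in the interactions of Arrdc2 with sex (0.0053) and Arrdc4 with batch (0.0022; 0.0035 with its size factors). The sex difference of Arrdc2 changed sign with DESeq2 (-0.037), limma voom (-0.15), batch 1 alone (-0.35) and HK-treated mice alone (-0.024). Arrdc3 lost its sex call with limma voom (0.48, adjusted p = 0.0614), in batch 1 (0.49) or batch 2 (0.57) alone and in untreated (0.46) or HK-treated (0.62) mice alone, and Arrdc1 in the same subsets (-0.26, -0.31, -0.27 and -0.30), each with fewer mice. Txnip was at -0.0065 for sex in batch 1 and passed in batch 2 (1.05). Over all alternatives with a filter, the adjusted p for sex was 0.00613 to 0.259 for Arrdc3, 0.0261 to 0.388 for Arrdc1 and 0.0127 to 0.983 for Txnip. Genes called for sex fell to 1316 in batch 1, 878 in batch 2, 489 in untreated mice (2635 at an unadjusted p) and 651 in HK-treated mice (2565). Genes at an unadjusted p under 0.05 for HK fell to 356 with no covariates, 385 in batch 1 and 353 in females.

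HK-treated and untreated mice of the same sex and number had an r of -0.33 to 0.23 with batch, sex and treatment removed. Differently numbered mice were not taken as a reference, so this check cannot exclude a pairing. With the replicate block the HK difference of Arrdc1 was 0.0015, the sex difference of Arrdc2 was -0.17 and Arrdc3 lost its sex call (0.50, adjusted p = 0.0609); the block changed no other call of the 5 genes. Leaving out 1 mouse at a time gave 0 to 1 gene for HK (1 without HK-treated female 1), HK differences of -0.042 to 0.044 for Arrdc1 and -0.0076 to 0.17 for Txnip, sex differences of -0.33 to -0.24 for Arrdc1, -0.27 to 0.21 for Arrdc2, 0.43 to 0.62 for Arrdc3 and 0.56 to 0.72 for Txnip, and a batch difference of 0.29 to 0.40 for Arrdc4, which lost its call without HK-treated female 2. Among pairs, Arrdc2 and Arrdc3 lost the call with a prior count of 0.5 (r = 0.601) and in batch 1 (0.837) or batch 2 (0.583), Arrdc1 and Txnip passed in batch 2 (0.776, permutation test, adjusted p = 0.0219), and r changed sign for Arrdc2 and Arrdc4 (0.165 with treatment left in, 0.557 in batch 1), Arrdc3 and Arrdc4 (0.442 and 0.374) and Arrdc2 and Txnip (-0.031 in batch 1). Apart from the smaller subsets, the cause of these changes was not tested.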
